A study of Rattus norvegicus with 123 samples.

Results

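The 200 transcripts with the brightest signal in control rat liver were followed through 8 compounds. They were drawn from 22470 distinct transcripts by 2 criteria. The mean difference between treated and control arrays had to lie between -1 and 1 (log2) for Wy-14643 at 28 d and between -2 and 2 for methapyrilene HCl at 100 mg/kg and 14 d. Of the transcripts that met both limits, the 200 with the highest mean log2 value over the 50 control arrays were taken. The members were thus chosen by measured values, those 2 comparisons and the control levels. Those 2 comparisons are described below without a test. The control arrays also enter the other comparisons, which are tested. The files pair 0 of 23110 probe sets with a gene symbol, so the members are known by Ensembl transcript identifier only, no gene function is given to any of them, and the labelled tissue could not be checked against liver markers.

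Male Han Wistar rats were dosed by daily gavage and killed 1 day after the last dose, and their liver RNA was hybridised to Affymetrix RaGene 2.0 ST arrays. The 112 arrays marked as of good quality were used and 11 others were not, in 17 treated and 12 control groups of 3 to 5 arrays. The medians of these arrays lay between 5.43 and 5.64 (log2).

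Each treated group was set against the vehicle group of the same set letter and day. Phenobarbital at 80 mg/kg was given for 14, 28 or 90 d, against carboxymethylcellulose of set A. Wy-14643 at 60 mg/kg was given for 28 d, against carboxymethylcellulose of set B. 1,4-Dichlorobenzene at 600 mg/kg was given for 28 d, against corn oil of set B. Methapyrilene HCl was given at 30 mg/kg for 14 or 28 d and at 100 mg/kg for 14 d. Its reference was carboxymethylcellulose of set C, whose arrays of the same day also served piperonyl-butoxide, dosed at 600 mg/kg over 14 or 28 d. An F and an M arm of set D received cyproterone acetate, 100 mg/kg for 14 or 28 d, each with its own corn oil groups. The letters F and M are not spelled out in the labels, which describe male animals throughout. Pioglitazone was given for 28 d at 16 or 63 mg/kg. Rosiglitazone was given over the same time at 10 mg/kg, and these 3 groups share the water controls of set E. Doses are quoted in mg/kg from the sample labels, although ppm stands in the names of the groups.

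Hepatocytes devote much of their messenger RNA to secreted plasma proteins, lipoproteins, enzymes of nitrogen and drug metabolism, and the translation machinery, and such messages usually give the brightest signals in liver. Phenobarbital is the classical activator of the receptor CAR and a promoter of rodent liver tumours. Wy-14643 activates PPARα, cyproterone acetate is a steroid that activates the rodent PXR, and pioglitazone and rosiglitazone are PPARγ agonists, named in the design as non-hepatocarcinogens. Methapyrilene is a withdrawn antihistamine that injures the rat liver. In whole liver, fewer cells of a type and less RNA per cell cannot be told apart.

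The members' mean control levels ran down to 11.44 (log2) at rank 200, with a highest mean of 13.82 and a median of 12.12. The median over all transcripts was 5.50. The next transcript had 11.43, so the lower edge of the list is not a gap. Of the members, 113 had a control mean of at least 12, and 30 of at least 13. A probe set's brightness also depends on how well its probes bind, so the order is one of signal and not of RNA amount. The highest value in the whole table was 13.91.

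The limits removed 56 of the 256 transcripts that were at least as bright as the last member. Methapyrilene HCl at 100 mg/kg accounted for 48 of them, all lower in treated livers, and Wy-14643 for 10, of which 7 were lower and 3 higher, with 2 outside both limits. Just inside the Wy-14643 limits, members had differences of -0.86 and 0.91, and the nearest transcripts outside had -1.02 and 1.17. For methapyrilene HCl at 100 mg/kg the lowest member had -1.98 and the nearest excluded transcript -2.02, while the highest member had 1.37 and no bright transcript lay above the upper limit.

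The residual SD of the members had a median of 0.094 (log2), against 0.205 over all transcripts, and 189 of the 200 (94.5%) lay under that median of all. The SD fell with brightness among dimmer transcripts too, from a median of 0.229 at levels of 4 to 5 to 0.136 at 9 to 10 and 0.132 at 10 to 11, where no members lie. At 13 to 14 it was 0.056, but 30 of the 32 transcripts there are members. Whether equally bright transcripts outside the members have as small a spread was not tested. Whether signals near the top of the scale are compressed was not tested. One member stood apart with an SD of 0.506, the only one above 0.5, and it is described below as ENSRNOT00000028545. The small spread narrows the intervals: with 4 arrays a group, the median 95% interval of a difference reached 0.141 to either side for the members, against 0.286 for all transcripts. One control animal had a technical repeat, and the members' median absolute difference between its arrays was 0.019, against 0.058 to 0.090 between the 10 pairs of animals of that group.

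**Figure D1:**
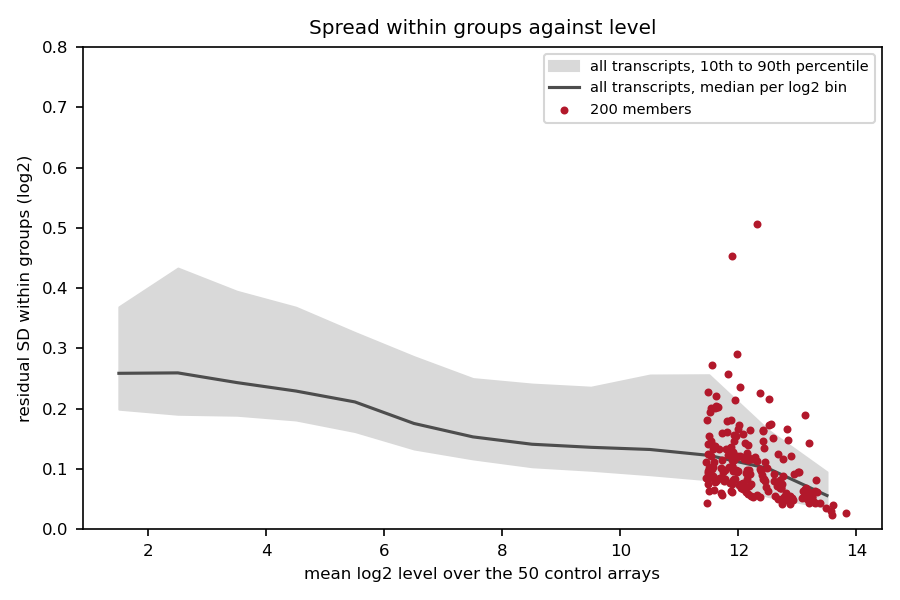
Residual SD (log2) of each transcript against its mean log2 level over the control arrays, for the 200 members and all 22470 transcripts. The members lie at the bright end, with a median SD of 0.094 against 0.205 for all.

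The 12 control groups differ in set, vehicle, day and arm. The range of a member's mean over them had a median of 0.28 (log2), against 0.44 over all transcripts, and it was above 1 for 8 members, at most 2.52. Whether these ranges exceed the spread of group means was not tested.

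Not all members are independent signals. At a residual correlation above 0.9, 39 members were linked to another member, in 15 groups of at most 6, which leaves 176 distinct signals. Links to any transcript were found for 20% of the members, against 9.7% of all transcripts. Counts of members below can therefore count 1 gene more than once.

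The members are 0.89% of the transcripts and held a far larger share of the linear signal of an array. In control arrays their share lay between 21.2% and 22.1%, with a median of 21.7%. The levels on those arrays ranked the members, so a large share there follows from the choice. It was 19.3% ± 0.053 under methapyrilene HCl at 100 mg/kg, against 21.7% ± 0.067 in its controls (SD, n = 3 each). Under Wy-14643 it was 20.4% ± 0.469, against 21.4% ± 0.169 in its controls (SD, n = 5 each). Both of those comparisons entered the choice of members. In the other 15 treated groups the mean share lay within the range of the control arrays.

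**Figure D2:**
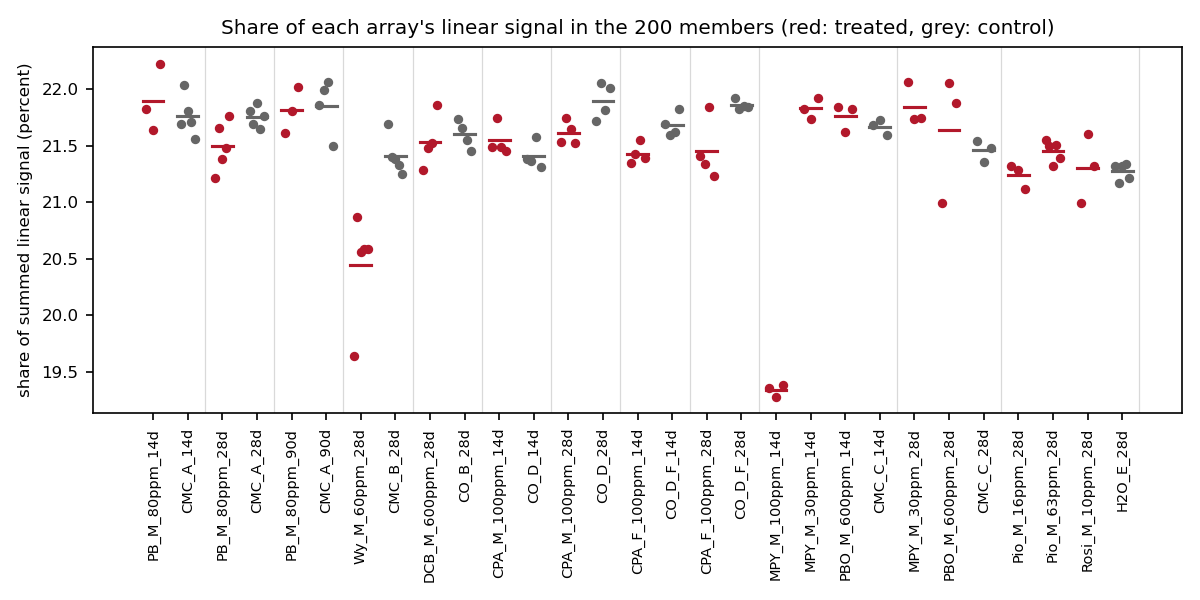
Share of linear signal (percent) held by the 200 members on each of the 112 arrays, by group, with treated groups beside their controls and bars for group means. The 3 arrays of methapyrilene HCl at 100 mg/kg lie lowest, and the control arrays lie between 21.2% and 22.1%.

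In the 15 comparisons whose differences did not choose the members, changes were tested with limma over all 22470 transcripts. A transcript was called at a Benjamini-Hochberg adjusted p under 0.05. These comparisons are not free of the choice, because their control arrays entered the mean level that ranked the members. The set C controls of 14 d also stand in the methapyrilene HCl comparison at 100 mg/kg that limited the list. What this adds to the calls was not tested. Members were called in 14 of these comparisons, 138 of the 200 (69%, against 39.8% of all transcripts) in at least 1 of them and 62 in none. Of the members, 53 (26.5%, against 19.1% of all transcripts) were called only higher, 64 (32%, against 16.7%) only lower and 21 (10.5%, against 4%) in both directions in different comparisons. Some of the 15 comparisons share control arrays, as given above. Most changes were small: the median absolute size of the called changes ran from 0.228 to 0.629 (log2) over the comparisons. The share of members called was above that of all transcripts in most comparisons, while the members' median absolute difference was smaller, for instance 0.128 against 0.155 for cyproterone acetate F at 28 d, beside the narrower intervals given above. When a control group and the groups set against it were fitted alone, fewer members were called in most comparisons. Those counts are given beside each compound where they differ by over 1.5 times. They and the counts without 1 array stand without the share of all transcripts. They therefore do not tell whether a change in the count is particular to the members.

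**Figure D3:**
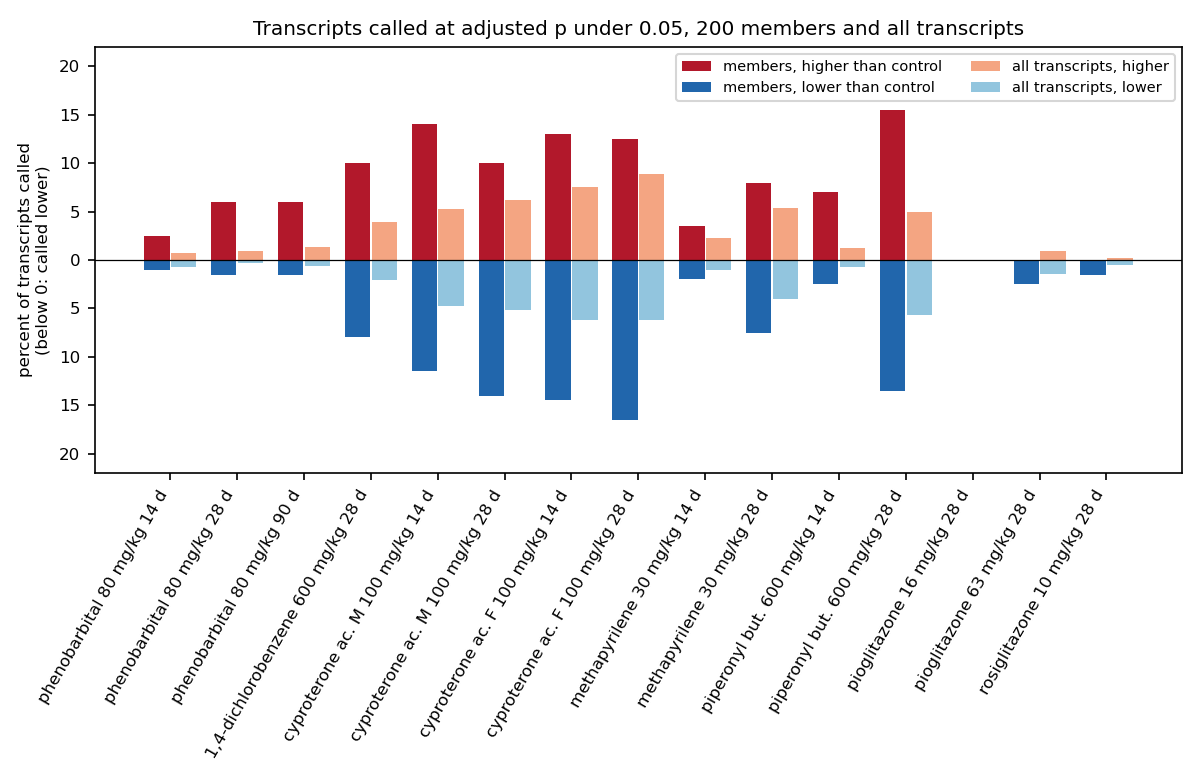
Percent of the 200 members and of all 22470 transcripts called higher (above 0) or lower (below 0) than control in each of the 15 comparisons. Cyproterone acetate F at 28 d and piperonyl-butoxide at 28 d have the most members called, 58 each, and pioglitazone at 16 mg/kg has none.

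Phenobarbital changed 7 to 15 of the brightest transcripts a day, more of them upward. At 14 d, 7 members were called, 5 higher and 2 lower (1.44% of all transcripts were called, 0.672% higher and 0.765% lower), and with all arrays, those not of good quality included, 19, 14 higher and 5 lower (4.83% of all). At 28 d, 15 were called, 12 higher and 3 lower (1.23% of all, 0.952% higher and 0.28% lower). At 90 d, 15 were called, 12 higher and 3 lower (1.98% of all, 1.36% higher and 0.623% lower), although quantile normalization moved the share called higher to 55%, against 80% as reported. With all arrays 29 were called at 90 d, 18 higher and 11 lower (3.99% of all). The lists of 28 and 90 d had 13 members in common, 86.7% of each, all in the same direction. Of the 7 called at 14 d, 5 were also called at 28 d, which is 71.4% of the first list and 33.3% of the second.

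Over all 3 days of phenobarbital, 5 members (2.5%, against 0.329% of all transcripts) were called each time, 4 higher (0.312% of all) and 1 lower (0.0178% of all). The lower one, at rank 167, had differences of -0.93, -0.81 and -0.82 at 14, 28 and 90 d, and it was called lower in 9 of the 15 comparisons. The member at rank 187 had 0.41, 0.46 and 0.36, and it was called higher in 10. The member at rank 34 had 0.63, 0.61 and 0.72. The other 2 are ENSRNOT00000004780 and ENSRNOT00000074103, described below. With each day fitted alone with its controls, 2, 4 and 8 members were called at 14, 28 and 90 d.

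1,4-Dichlorobenzene at 28 d changed 36 members, 20 higher and 16 lower (5.96% of all transcripts, 3.89% higher and 2.07% lower). Centring the arrays on their medians moved the share called higher to 68.6%, against 55.6% as reported. The called differences ran from -1.10 to 0.69 (log2). Of the 15 members called under phenobarbital at 28 d, 13 were also called here in the same direction, which is 86.7% of the phenobarbital list and 36.1% of this one. Fitted alone with its controls, the group gave 21 members.

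Piperonyl-butoxide changed more of the brightest transcripts at 28 d than at 14 d in number. However, 0 members were called in limma's test of the difference between the days (0.0401% of all transcripts were called). At an unadjusted p under 0.05 there were 17 members, but the share of all transcripts at that threshold was not counted. At 14 d, 19 were called, 14 higher and 5 lower (1.9% of all transcripts, 1.23% higher and 0.676% lower). At 28 d, 58 were called, 31 higher and 27 lower (10.6% of all, 4.93% higher and 5.71% lower). All 19 of the 14 d list were called at 28 d in the same direction, 32.8% of the second list. The share called higher at 28 d was 53.4% as reported, 64.2% with arrays centred and 36.1% with quantile normalization, so the balance of directions depends on the scaling. The 3 arrays treated for 28 d had a median SD of 0.127 over the members, the widest of the 29 groups, against 0.051 in their controls. Over all transcripts it was 0.248 against 0.160, so the wider spread is not particular to the members. With set C of 1 day fitted alone, 11 members were called at 14 d and 3 at 28 d.

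Methapyrilene HCl at 30 mg/kg changed 11 members at 14 d, 7 higher and 4 lower (3.38% of all transcripts, 2.31% higher and 1.07% lower). Quantile normalization moved the share called higher to 80%, against 63.6% as reported. At 28 d it changed 31, 16 higher and 15 lower (9.43% of all, 5.37% higher and 4.06% lower). On both days 7 were called in the same direction, 63.6% of the first list and 22.6% of the second. The 28 d count rests on single arrays, at 15 without treated replicate 2 and 47 without treated replicate 1. The group's median SD over the members was 0.119 against 0.051 in controls, and over all transcripts 0.184 against 0.160. At 14 d, leaving out treated replicate 3 gave 4 members and leaving out control replicate 2 gave 7. Fitted alone, set C gave 4 members at 14 d and 0 at 28 d by limma, with 20 at an unadjusted p under 0.05.

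Cyproterone acetate changed between 48 and 58 of the brightest transcripts in each arm and day, in both directions. In the F arm 55 were called at 14 d, 26 higher and 29 lower (13.7% of all transcripts, 7.53% higher and 6.21% lower), and 58 at 28 d, 25 higher and 33 lower (15.2% of all, 8.91% higher and 6.24% lower). In the M arm 51 were called at 14 d, 28 higher and 23 lower (9.95% of all, 5.22% higher and 4.72% lower), and 48 at 28 d, 20 higher and 28 lower (11.3% of all, 6.16% higher and 5.14% lower). Within an arm the days shared 40 members in F (72.7% and 69% of the lists at 14 and 28 d) and 34 in M (66.7% and 70.8%), none in opposite directions.

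The direction of the cyproterone acetate calls depends on the scaling. With arrays centred on their medians, the share called higher was 62.5% in F at 14 d (47.3% as reported), 32.8% in F at 28 d (43.1% as reported, and 56.5% with quantile normalization), 79.7% in M at 14 d (54.9% as reported) and 61.7% in M at 28 d (41.7% as reported). Each arm and day fitted alone gave 29 members in F at 28 d, 29 in M at 14 d and 23 in M at 28 d.

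The arms were also compared directly. The F and M controls are among the control arrays whose mean level ranked the members. Between F and M controls, 40 members differed at 14 d, 21 higher in F and 19 lower (7.92% of all transcripts, 3.87% higher and 4.05% lower), and 29 at 28 d, 12 higher in F and 17 lower (7.69% of all, 4.09% higher and 3.6% lower). At 28 d centring moved the share higher in F to 53.6%, against 41.4% as reported. The same members were then measured on the day that had not chosen them, without a test. The 21 members higher in F controls at 14 d had a median F minus M difference of -0.00 in treated animals at 28 d, against 0.26 in controls, and 20 of the 21 were smaller in treated animals. The 17 lower in F controls at 28 d had -0.10 in treated animals at 14 d, against -0.25 in controls, with 15 smaller.

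The effect of cyproterone acetate itself differed between the arms for 16 members at 14 d, 3 with a higher and 13 with a lower difference in F (3.38% of all transcripts, 1.93% and 1.45%), and for 11 at 28 d, 3 higher and 8 lower (3.47% of all, 2.06% and 1.41%). The balance of directions moved with the scaling: 18.8% were higher at 14 d as reported, 5.88% with centring and 47.4% with quantile normalization, and at 28 d 27.3%, 9.09% and 63.6%. Leaving out M control replicate 4 gave 8 members at 14 d, and leaving out F treated replicate 4 gave 10. The count at 28 d was 6 without F treated replicate 4, and 7 without F treated replicate 3, M treated replicate 1 or M control replicate 4. With set D of that day fitted alone, 3 members differed in effect at 28 d and 16 between the controls.

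Pioglitazone and rosiglitazone had between 0 and 5 of the brightest transcripts called. Pioglitazone at 16 mg/kg had 0 members called by limma (0.049% of all transcripts were called, 0.0223% higher and 0.0267% lower). At an unadjusted p under 0.05 there were 5 members, but the share of all transcripts at that threshold was not counted. At 63 mg/kg, 5 were called, all lower, between -0.34 and -0.18 (2.41% of all were called, 0.935% higher and 1.48% lower), a share close to the background. The count at 63 mg/kg was 2 without water control replicate 2 or treated replicate 2, and 3 without water control replicate 1, water control replicate 3 or treated replicate 4. Rosiglitazone at 10 mg/kg had 3 called, all lower (0.681% of all were called, 0.2% higher and 0.481% lower), and 1 without treated replicate 2 or 4. With all arrays, 6 were called for rosiglitazone, 2 higher and 4 lower (1.9% of all), and 3 for pioglitazone at 63 mg/kg, all lower. Fitted alone, set E gave 0 members by limma for rosiglitazone and for pioglitazone at 16 and 63 mg/kg, with 11, 3 and 14 at an unadjusted p under 0.05.

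Wy-14643 and methapyrilene HCl at 100 mg/kg are the comparisons that limited the list, and the control arrays in them also set its brightness, so their values only describe what was chosen. Under Wy-14643 the median difference was -0.10 (log2), against -0.00 for all transcripts, and 79 of the 200 were positive. Under methapyrilene HCl at 100 mg/kg it was -0.29, against -0.09 for all, and 65 were positive. Centring arrays on their medians shifted every difference of that comparison by -0.13, which gave a members' median of -0.43, and quantile normalization gave -0.17. Of the 256 brightest transcripts on a group's arrays, 144 were members under methapyrilene HCl at 100 mg/kg and 166 under Wy-14643. Among the other treated groups the number was 173 under piperonyl-butoxide at 28 d, 175 under 1,4-dichlorobenzene and 175 or 176 under cyproterone acetate, and at most 187. In the control groups, whose brightness chose the members, it was 181 to 190.

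**Figure D4:**
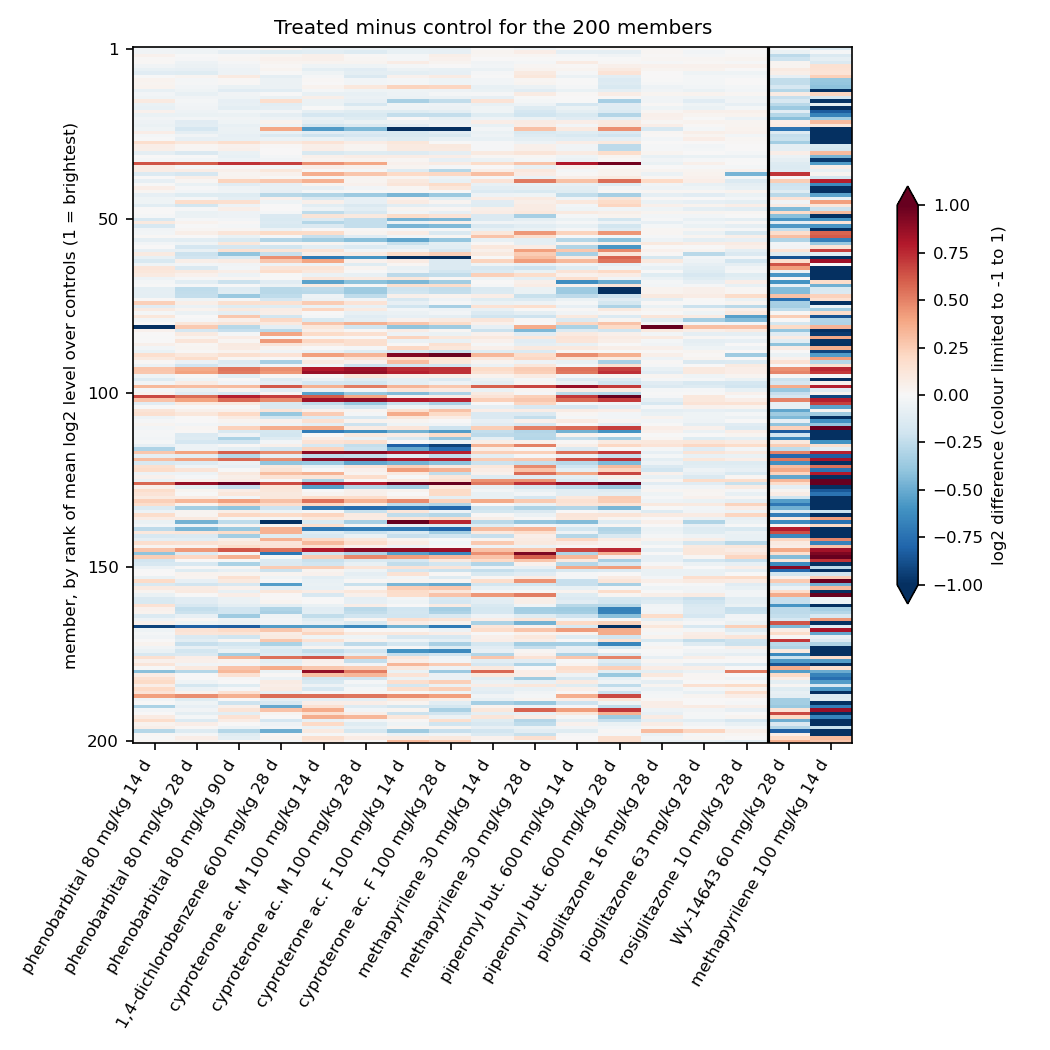
Treated minus control difference (log2, colour limited to -1 to 1) for the 200 members, ordered by brightness from rank 1 at the top, in the 15 tested comparisons and, right of the line, the 2 used to choose the members. Bands that keep 1 colour across phenobarbital, 1,4-dichlorobenzene, cyproterone acetate and piperonyl-butoxide are members called repeatedly in 1 direction.

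Several compounds with separate control animals called the same members at 28 d. All 15 members called under phenobarbital were also called under cyproterone acetate M, 31.2% of the second list, in the same direction. Piperonyl-butoxide called 13 of those 15 (86.7%, and 22.4% of its own list), cyproterone acetate F 12 (80% and 20.7%) and methapyrilene HCl at 30 mg/kg 3 (20% and 9.68%), all in the same direction. The lists are of very different length, so the shares of the second list are small. Overlaps between lists, here and under each compound above, were counted for the members only. Whether transcripts outside the members overlap as much was not counted, so the shares cannot be called particular to the members. Cyproterone acetate M and piperonyl-butoxide had 27 members in the same direction (56.2% and 46.6%) and 4 in opposite directions. 1,4-Dichlorobenzene and cyproterone acetate F had 17 in the same direction (47.2% and 29.3%) and 2 in opposite directions.

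Members were called in up to 12 comparisons. Taken in blocks of 50 from the brightest to the dimmest, 23, 35, 43 and 37 were called at least once, and the median residual SD of those blocks was 0.055, 0.097, 0.12 and 0.102. In at least 5 of the 15 comparisons 27 members (13.5%, against 3.88% of all transcripts) were called, and 13 (6.5%, against 0.632%) in at least 8. Comparisons that share control arrays add to such counts for members and for all transcripts. Of those 13, 11 were called only higher and 2 only lower, and they form 8 distinct signals after linking.

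The next 4 transcripts were picked for the largest rises and falls among members called without overlap of treated and control arrays. In the comparison that picked each, the call and the lack of overlap therefore restate the choice. ENSRNOT00000004780, at rank 126, was called in 12 of the 15 comparisons, always higher. In cyproterone acetate F at 14 d it had 13.13, 13.13, 13.15 and 13.07 (log2), against 11.90, 11.81, 11.83 and 12.04 in F controls. The groups do not overlap, as the choice required, and the difference was 1.23 (SE 0.11, adjusted p = 1.68e-15, limma). At 90 d of phenobarbital it had 12.85, 12.88 and 12.83, against 11.84, 11.89, 11.96 and 11.47 in the controls. These groups do not overlap either. Under phenobarbital the differences were 0.58, 0.87 and 1.07 at 14, 28 and 90 d. Under piperonyl-butoxide they were 0.87 and 1.10 at 14 and 28 d, and under methapyrilene HCl at 30 mg/kg 0.52 and 0.73. The tested comparisons without a call were those in set E, with -0.11 and -0.12 for pioglitazone at 16 and 63 mg/kg and -0.22 for rosiglitazone (adjusted p = 0.837, 0.615 and 0.488, limma). In the comparisons that limited the list, the difference was 0.18 under Wy-14643 and 1.15 under methapyrilene HCl at 100 mg/kg.

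ENSRNOT00000074103, at rank 101, was called higher in 8 comparisons. Under piperonyl-butoxide at 28 d it had 12.82, 12.65 and 13.07, against 12.07, 11.75 and 11.54 in the controls. All treated arrays lay above all control arrays, as the choice required, with a difference of 1.06 (SE 0.12, adjusted p = 7.31e-11, limma). At 90 d of phenobarbital it had 12.82, 12.88 and 12.81, against 11.99, 11.93, 12.27 and 12.06 in the controls, again without overlap. The difference there was 0.77 (adjusted p = 3.01e-07, limma). Under methapyrilene HCl at 100 mg/kg, which limited the list, it had 11.09, 10.56 and 11.21, against 12.17, 11.67 and 11.75. Under cyproterone acetate the M arm rose by 0.60 at 14 d (adjusted p = 7.3e-06, limma), while the F arm had 0.04 (adjusted p = 0.874, limma). The F minus M difference of these effects was -0.56 (SE 0.15, adjusted p = 0.0114, limma). The F controls already stood above the M controls at that day, by 0.47 (adjusted p = 0.000587, limma).

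ENSRNOT00000021653, at rank 61, was called lower in all 4 cyproterone acetate comparisons and higher under piperonyl-butoxide at 28 d. In F at 28 d it had 11.24, 10.88, 11.52 and 11.04, against 12.96, 12.59, 12.94 and 12.81 in F controls. The choice required groups without overlap. These lie over 1 unit apart, and the difference was -1.66 (SE 0.15, adjusted p = 1.64e-15, limma). In M at 28 d the difference was -0.59 (adjusted p = 0.00407, limma). The effect was lower in F than in M by -1.07 at 28 d (SE 0.21, adjusted p = 0.000427, limma), and by -0.57 at 14 d without passing the test (adjusted p = 0.151, limma). Under piperonyl-butoxide at 28 d it rose by 0.58 (adjusted p = 0.019, limma). In the comparisons that limited the list, the difference was -0.86 under Wy-14643 and -1.87 under methapyrilene HCl at 100 mg/kg.

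ENSRNOT00000028545, at rank 81, had the largest fall of any member and the widest spread. Under phenobarbital at 14 d it had 10.25, 9.15 and 9.84, against 12.43, 12.15, 12.52, 12.35 and 10.30 in the controls. One control array, replicate 5, lay next to the treated arrays, and the groups were separated by less than 0.1 unit. The difference was -2.20 (SE 0.36, adjusted p = 2.95e-05, limma), and with that day fitted alone with its controls the same difference had an adjusted p of 0.164 (limma). At 28 and 90 d the differences were 0.26 and -0.28 (adjusted p = 0.845 and 0.869, limma). It was the member that differed between days, by 2.46 for 28 minus 14 d (SE 0.48, adjusted p = 0.00874, limma; 0.0712% of all transcripts were called). The number of members called in any of the 6 differences between days was 0 without phenobarbital 14 d replicate 3, 10 without piperonyl-butoxide 28 d replicate 2 and 3 without piperonyl-butoxide 28 d replicate 3. On the 2 arrays of phenobarbital at 14 d that were not of good quality it had 10.35 and 10.08, near the treated arrays that were used. Vehicle animals ranged widely too, from 9.97 to 13.08 over the control arrays, with 2 of the 5 water controls at 10.18 and 9.97.

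ENSRNOT00000003921, at rank 1, was the brightest member and the one with the smallest range of group means, 0.17. Over the 112 arrays it lay between 13.62 and 13.91, and it was called in none of the 15 comparisons. Its highest value is also the highest in the whole table.

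**Figure D5:**
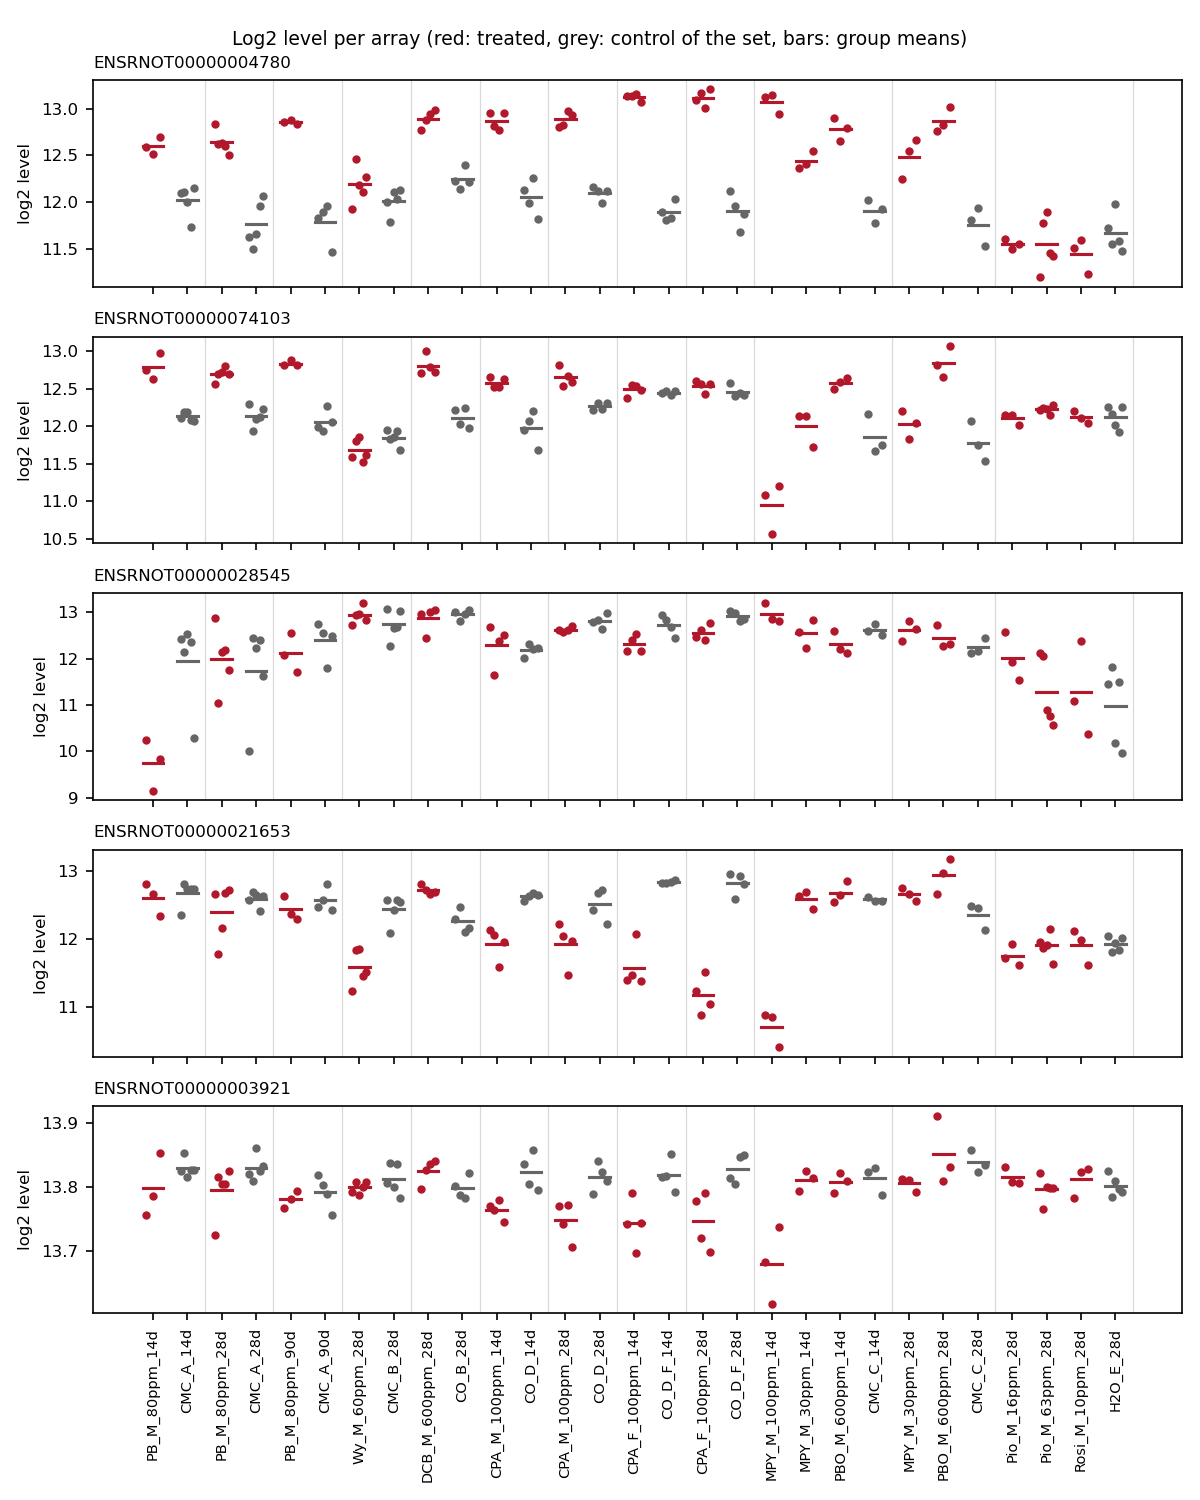
Log2 level per array of the 5 transcripts described by identifier, with treated groups in red left of their control group in grey and bars for group means. ENSRNOT00000004780 was called higher in every tested comparison outside set E, ENSRNOT00000028545 scatters among controls as well as treated arrays, and ENSRNOT00000003921 spans 13.62 to 13.91.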

How the data were processed

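The authors deposited log2 values of 23110 probe sets per array. Per the submitters' processing notes they come from RMA and affy (no version). The annotation build, and whether normalization covered the arrays together, are not given in the sources used here. RMA usually includes a quantile step, which would hide a change shared by most transcripts, although the array medians here still differ. From these values, 640 rows equal to an earlier one and 11 arrays not marked as of good quality were left out. The means of 29 groups were estimated for 22470 transcripts with limma 3.58.1 in R 4.3.3 (83 residual and 4.23 prior degrees of freedom), with Benjamini-Hochberg adjustment over all transcripts and a threshold of 0.05. It was tested on simulated data. The number of arrays limits the precision. The p-values rest on a variance per transcript that pools the spread within all 29 groups, not only within the groups compared. A group with a wider spread than most is thus tested against a smaller one. The labels describe the arrays of a group as randomised animals.

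The members and lists were chosen with earlier results of these data known. The design had foreseen gene lists by symbol, but 0 probe sets matched the reference table of 47357 genes, so transcripts were used. Those printed by identifier are the 2 largest rises and 2 largest falls among members called without overlap of treated and control arrays, 1 per linked group, and the brightest and steadiest member if never called. Treated and control arrays of equal replicate number shared little deviation from their group means: over 60 pairs the correlation ran from -0.114 to 0.076. This cannot tell whether the numbers paired animals in the experiment, and the main fit did not pair them. Alternatives were all arrays, each control group with its treated groups alone, centring, quantile normalization, no dim transcripts (the lowest 40%), trend and robust variances, a replicate block and leaving out each array.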

Additional observations from a re-analysis of the deposited data

Results flagged for a closer look

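In the 18 groups with 4 or 5 arrays, 126 combinations of a group and a measured quantity were tested for a single distant array. A distant array was found in 8, and chance gives about 1 in 20. ENSRNOT00000028545 was at 10.30 in set A control replicate 5 at 14 d, against 12.15 to 12.52 in the others. It was at 12.45 in 1,4-dichlorobenzene replicate 2, against 12.97 to 13.05. ENSRNOT00000021653 was at 12.08 in cyproterone acetate F replicate 3 at 14 d, against 11.37 to 11.46, and at 12.36 in set A control replicate 1 at 14 d, against 12.74 to 12.81. ENSRNOT00000003921 was at 13.72 in phenobarbital replicate 1 at 28 d, against 13.80 to 13.82. The members' share of linear signal was 21.7% in cyproterone acetate M replicate 2 at 14 d, against 21.5% in each of the others, and 19.6% in Wy-14643 replicate 1, against 20.6% to 20.9%. The members' median level was 12.13 in set A control replicate 1 at 14 d, against 12.15 to 12.16.

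Differences between arms or days passed their own test. The cyproterone acetate effect differed between F and M for 16 members at 14 d and 11 at 28 d. ENSRNOT00000074103 had an F minus M effect of -0.56 at 14 d, and ENSRNOT00000021653 one of -1.07 at 28 d. The phenobarbital effect on ENSRNOT00000028545 differed by 2.46 between 28 and 14 d.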

How the results depend on the processing

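Of 167 results under alternatives other than leaving out an array, 142 kept their direction and side of the threshold, or for counts stayed within 1.5 times. The differences of the 4 transcripts named for a rise or fall kept their sign. That sign could not change with each control set alone, without dim transcripts or with trend and robust variances, which keep the group means. The balance of higher and lower calls is not among these results and did turn: with quantile normalization it was 26 higher and 46 lower for piperonyl-butoxide at 28 d (31 and 27 as reported), 35 and 27 for cyproterone acetate F at 28 d (25 and 33) and 7 and 4 for the F minus M effect at 28 d (3 and 8), and with arrays centred 29 and 18 for cyproterone acetate M at 28 d (20 and 28). It also turned for cyproterone acetate F at 14 d (35 and 21 centred, 32 and 27 with quantile normalization, 26 and 29 as reported), F against M controls (15 and 13 centred at 28 d, 18 and 20 with quantile normalization at 14 d) and 1,4-dichlorobenzene (19 and 20 with quantile normalization). With all arrays, members called were 19 for phenobarbital at 14 d, 29 at 90 d, 3 for pioglitazone at 63 mg/kg and 6 for rosiglitazone (2 higher and 4 lower). With each control set alone they were 2, 4 and 8 for phenobarbital at 14, 28 and 90 d, 21 for 1,4-dichlorobenzene, 29 for cyproterone acetate F at 28 d, 29 and 23 for M at 14 and 28 d, 4 and 0 for methapyrilene HCl at 30 mg/kg, 11 and 3 for piperonyl-butoxide, and 0 for pioglitazone at 63 mg/kg and for rosiglitazone. In the same fits 16 members differed between F and M controls at 28 d, 3 in the effect at 28 d and 0 between days, and ENSRNOT00000028545 kept -2.20 with adjusted p = 0.164 (limma). Of the 235 member calls made in these fits, 229 were among the reported ones. Their direction could not change, because these fits keep the group means and change only the variances. The cause of the lower counts was not tested, and the share of all transcripts in these fits is not given beside them. Without the dimmest 40%, phenobarbital at 14 d had 11. With the replicate block, pioglitazone at 63 mg/kg had 3 and the F minus M effect 10 at 14 d and 7 at 28 d, and the block moved no other count by over 1.5 times.

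Leaving out 1 array gave 4 to 11 members for methapyrilene HCl at 30 mg/kg at 14 d and 15 to 47 at 28 d, 2 to 5 for pioglitazone at 63 mg/kg, 1 to 3 for rosiglitazone, 8 to 18 and 6 to 11 for the F minus M effect at 14 and 28 d, and 0 to 10 for the differences between days. Piperonyl-butoxide at 28 d had 39 to 70.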
